A study of Acanthocheilonema viteae with 2 samples.

Results

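The miRNAs miR-228, miR-307, miR-86 and miR-50 were followed in the RNA that adult Acanthocheilonema viteae, a filarial nematode of rodents, released into culture medium. Entries were chosen by name: a nematode species code and one of these 4 numbers, with every arm and end variant, and with mir in lower or upper case. This gave 9 of the 384 deposited entries, of 86 with a nematode name. The study compared 1 library from females with 1 library from males. No genotype, strain or agent distinguished the groups beyond sex. Worms of each sex were cultured on their own in RPMI with penicillin, streptomycin and glutamine, for 3 weeks at most, and RNA was taken from the washed ultracentrifuge pellet of the medium, the fraction in which vesicles collect. The number of worms behind each library was not given in the sources used here. Because each sex had a single library, ratios compare these 2 libraries, no test between the sexes was possible, and intervals cover counting error only.

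A miRNA guides an Argonaute protein to messenger RNAs, mainly through its seed, bases 2 to 8 from the 5′ end. The precursor hairpin yields a strand from each arm, and as a rule one strand is kept and the other largely lost. Nematodes release miRNAs in vesicles, and those of filarial worms have been found in the fluids of their hosts. In Caenorhabditis elegans miR-228 is a miRNA of glia, and its seed is that of fly miR-263 and mammalian miR-183. The fly miRNA miR-307 has the seed of C. elegans miR-67, and miR-50 has that of mammalian miR-190. The species codes bma, asu and cel stand for Brugia malayi, Ascaris suum and C. elegans, whose known miRNAs the sequences resemble.

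The 4 main entries are shown first, since they carried nearly all reads, with the seed in capitals and T for U as deposited.
bma-miR-228: aATGGCACtagatgaattcacgg
bma-miR-307_R-1: tCACAACCtccttgagtaagcgg
asu-miR-86-5p: tAAGTGAAtgctttgccacagtct
bma-miR-50: tGATATGTctgatattcttgggtt
Their 4 seeds differed, so they formed no common seed family. They were 23 or 24 nt long, against a median of 22 nt over 127 different worm sequences, which are those with a nematode name or with no species (predicted candidates, names starting with PC). GC content ran from 33.3% in bma-miR-50 to 52.2% in bma-miR-307_R-1, around the worm median of 45.5%.

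The 5 minor entries are shown because they are other arms or variants of the same miRNAs.
asu-miR-50-5p: tGATATGTctggtattcttgggtt
cel-miR-86-5p_L+1R+1: cTAAGTGAatgctttgccacagtct
asu-miR-86-3p_R+1_2ss8GA20CG: cTGGGCTAaggttcacttaggc
bma-mir-307-p5_1ss10AG: aGCTTACTcggctggttgtatgatg
bma-mir-228-p3_1ss4TC: gTGCATTCgccagttccataga
The entry asu-miR-50-5p differed from bma-miR-50 by A12G, counted from 1 at the 5′ end with the bma base first, outside the seed. The entry cel-miR-86-5p_L+1R+1 was asu-miR-86-5p with 1 more base, C, at the 5′ end, which moves the seed by 1 base. The remaining 3 were the opposite arms of miR-86, miR-307 and miR-228. No member sequence stood on a second entry.

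The female library held 292740 reads over the deposited entries and the male library 74881.3. Worm entries, the nematode-named ones plus candidates, made up 93.3% of the female reads (273106) and 48.6% of the male reads (36371). Mammal-named entries took 6.71% and 51.4%. Each female-to-male ratio is therefore 1.92 times lower over worm reads than over all reads, and both are given. The longest unbroken run that any member shared with a mammal-named sequence was 7 to 9 bases.

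The 4 miRNAs together had 15117 female and 358 male reads, or 5.16% and 0.478% of each library. Among worm reads they took 5.54% and 0.984%. Their summed ratio was 10.8 on the scale of all reads (95% interval 9.73 to 12.03) and 5.62 on that of worm reads (5.06 to 6.26). The label of a female-high set thus described the sum on both scales, though not every entry, as asu-miR-50-5p below shows. The members were proposed because their ratios in these same libraries were high, so those ratios are a description and support nothing by themselves.

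The largest of the 4 was asu-miR-86-5p, with 7339 female and 172 male reads. It took 2.69% of worm reads in the female library (2.63 to 2.75) and 0.473% in the male (0.405 to 0.549). It was the 6th most abundant of 129 worm entries in the female library and the 32nd in the male. Its ratio was 10.9 by all reads (9.38 to 12.8) and 5.68 by worm reads (4.88 to 6.65).

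The glial miRNA of C. elegans came next in the female library, with 3005 female and 47 male reads of bma-miR-228. Its share of worm reads was 1.10% in the female (1.06 to 1.14) and 0.129% in the male (0.0950 to 0.172), and its place among worm entries was 14 and 55. It had the highest ratio of the 4, 16.4 by all reads (12.3 to 22.3) and 8.51 by worm reads (6.39 to 11.6).

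The fly-like miRNA bma-miR-307_R-1 had 2675 female and 58 male reads, 0.979% (0.943 to 1.02) and 0.159% (0.121 to 0.206) of worm reads. It fell in place from 18 in the female to 52 in the male library. Its ratio was 11.8 by all reads (9.10 to 15.6) and 6.14 by worm reads (4.74 to 8.11).

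The entry bma-miR-50, with the seed of mammalian miR-190, had 2047 female and 69 male reads. These were 0.750% (0.718 to 0.783) and 0.190% (0.148 to 0.240) of worm reads, at places 23 and 49. Its ratio was the lowest of the 4, 7.59 by all reads (5.97 to 9.79) and 3.95 by worm reads (3.11 to 5.10). In each of the 4 cases the female and male intervals of the share lay apart. Nothing is read from this, since the members were chosen by ratio. The share of all worm entries with intervals apart was not computed.

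**Figure D1:**
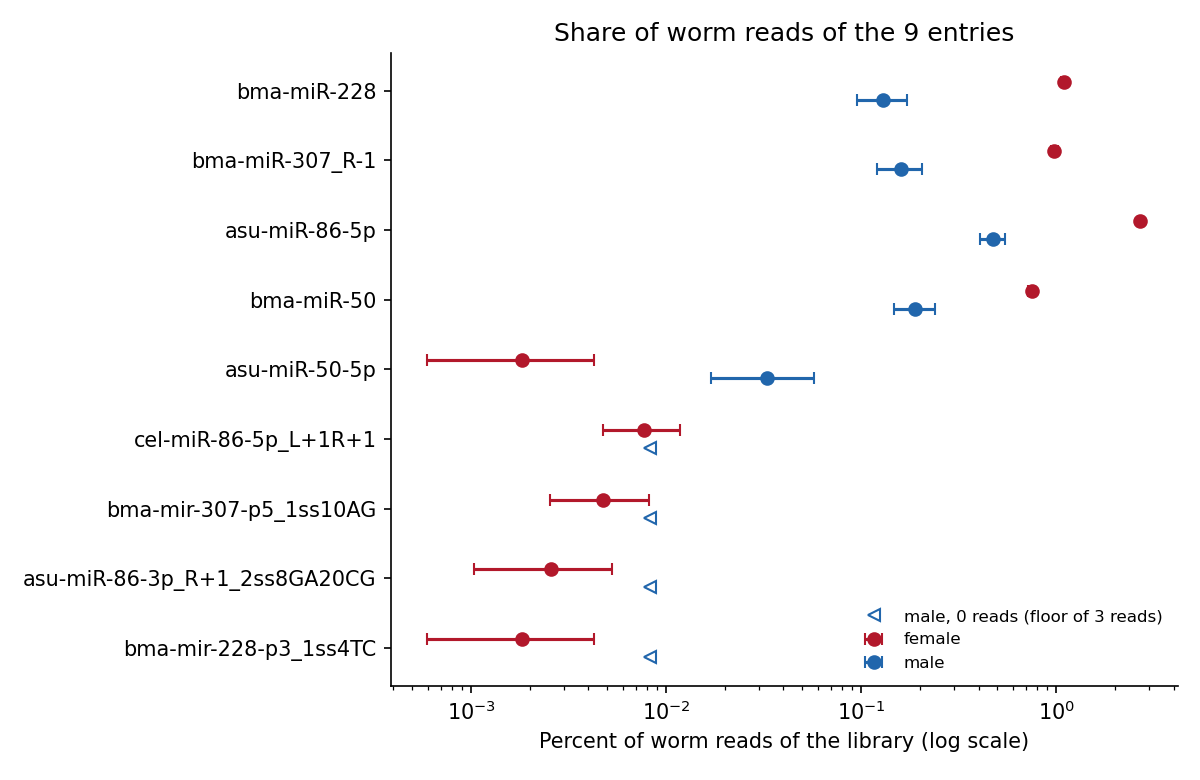
Share of worm reads (percent, log axis) of each of the 9 entries in the female (red) and male (blue) library, with exact binomial 95% intervals, and open arrows at the floor of 3 reads where the male library had 0. The 4 main entries sit between 0.750% and 2.69% in the female library and between 0.129% and 0.473% in the male, while asu-miR-50-5p lies higher in the male library.

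On the authors' deposited normalized values the 4 main entries had female-to-male ratios of 76.4 (bma-miR-228), 55.1 (bma-miR-307_R-1), 51.0 (asu-miR-86-5p) and 35.4 (bma-miR-50). On that scale, 85.7% of the 112 worm entries with at least 10 reads in a library exceeded 2-fold toward the female. Of the 9 members, 7 had at least 10 reads in a library, and the 4 main entries had a ratio of 2 or more by all reads and by worm reads alike. The background, by all reads, was 18.5% of all 287 such entries and 35.7% of the 112 worm ones. By worm reads it was 8.04% of the worm ones. Nothing is read from the members' count, since the choice of members used it.

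Set against the other worm miRNAs, the 4 main entries held places 2 to 5 of the 86 worm entries read in both libraries. The median of these 86 ratios was 1.16 over all reads, or 0.605 over worm reads, and dividing by it gives a value that no constant scaling of a library can move. On this scale bma-miR-228 lay 14.1 times above the median (10.5 to 19.2), bma-miR-307_R-1 lay 10.1 times above (7.82 to 13.4), asu-miR-86-5p 9.39 times (8.07 to 11.0) and bma-miR-50 6.53 times (5.13 to 8.42). The quartiles of the 86 entries were 0.451 and 1.86. At least 2-fold above the median lay 20.9% of the 86 and at least 5-fold above lay 5.81%, which is 5 entries, the 4 main ones and bma-miR-45.

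**Figure D2:**
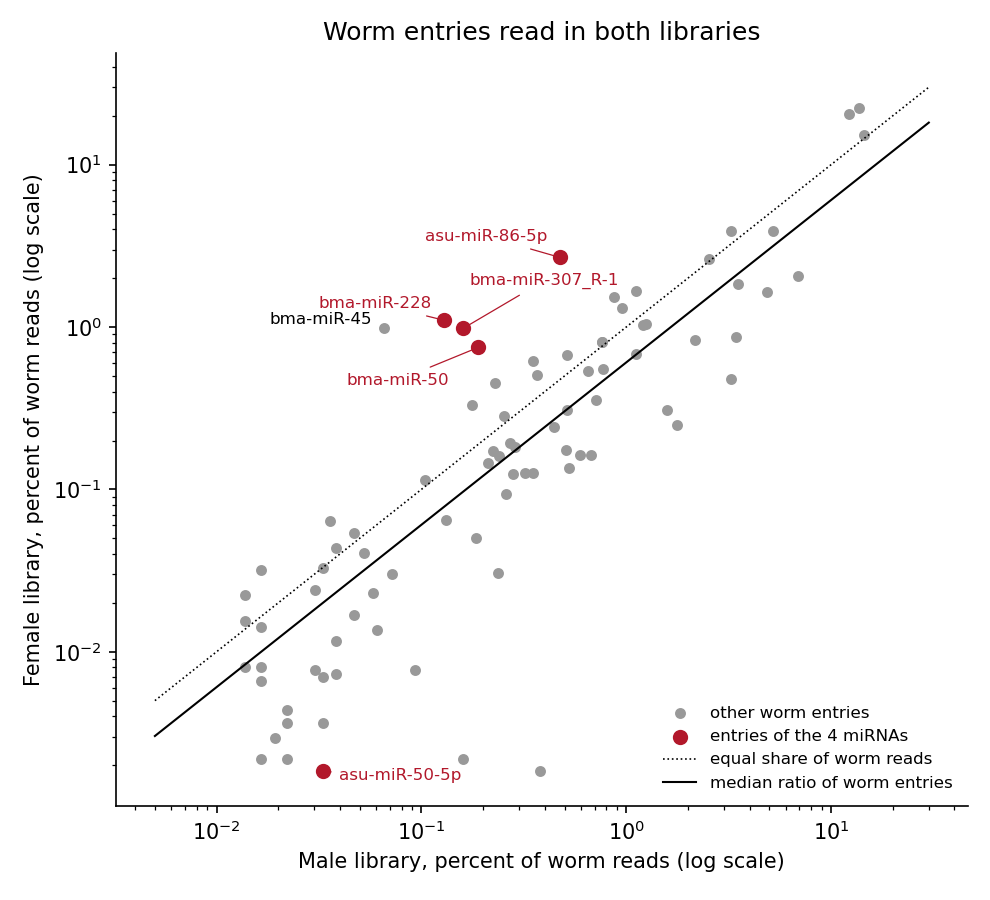
Share of worm reads in the female against the male library (percent, both axes log) for the 86 worm entries read in both, with the entries of the 4 miRNAs in red. The solid line marks the median ratio and the dotted line equal shares. The 4 main entries and bma-miR-45 stand farthest above the median line, and asu-miR-50-5p lies below it.

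The 4 ratios also differed among themselves, and their order does not depend on the scale. Of the 6 pairs, each set with the higher ratio first, 4 had a ratio of ratios whose exact 95% interval lay above 1. These intervals cover counting error only, and whether such gaps exceed the spread between libraries of a sex was not tested. The widest gap was 2.16 (1.46 to 3.21), between bma-miR-228 and bma-miR-50. The entry bma-miR-228 also exceeded asu-miR-86-5p by 1.498 (1.08 to 2.12), and bma-miR-50 lay below both bma-miR-307_R-1, by 1.55 (1.07 to 2.25), and asu-miR-86-5p, by 1.44 (1.07 to 1.92). The neighbours bma-miR-228 and bma-miR-307_R-1 could not be separated at this depth, with 1.39 (0.924 to 2.09), nor could bma-miR-307_R-1 and asu-miR-86-5p, with 1.08 (0.795 to 1.49). As parts of the sum of the 4, asu-miR-86-5p held 48.7% in the female library and 49.7% in the male (44.3 to 55.1). The share of bma-miR-228 in that sum was 19.9% (19.3 to 20.6) in the female and 13.6% (10.2 to 17.7) in the male, and that of bma-miR-50 was 13.6% (13.04 to 14.1) and 19.9% (15.9 to 24.5), so these exchanged places.

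The worm entry whose ratio came nearest to the median of the 4, on a log2 scale over these 2 libraries, was bma-miR-45, with 2678 female and 24 male reads and a ratio of 28.5 (19.1 to 44.6) by all reads. Its log2 ratio lay 1.33 from that median of 3.50, and that of the next entry 1.58. It was the only other worm entry read in both libraries whose ratio exceeded that of bma-miR-50. Of 67 worm entries compared, each with at least 10 reads in each library, the next in likeness were asu-miR-993-3p at 3.81 (3.05 to 4.81), PC-3p-457_786 at 3.64 (2.82 to 4.76), bma-miR-7_R+1 at 3.44 (1.96 to 6.596) and asu-miR-5360-5p at 3.38 (2.83 to 4.08). The interval of asu-miR-993-3p ended below that of bma-miR-50. Nothing is read from this gap, since the members were chosen by ratio. With 87 female and 6 male reads, PC-3p-10687_40 had a ratio of 3.71 (1.64 to 10.4). Its interval at these low counts holds that of bma-miR-50. The entries bma-miR-234_R+3 (88 female reads) and PC-3p-6544_68 (82) were at 0 in the male library, and against a floor of 3 male reads they stood at 6.45 and 6.01 times the median worm entry. The smallest male worm count above 0 was 5, so both values could be lower.

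**Figure D3:**
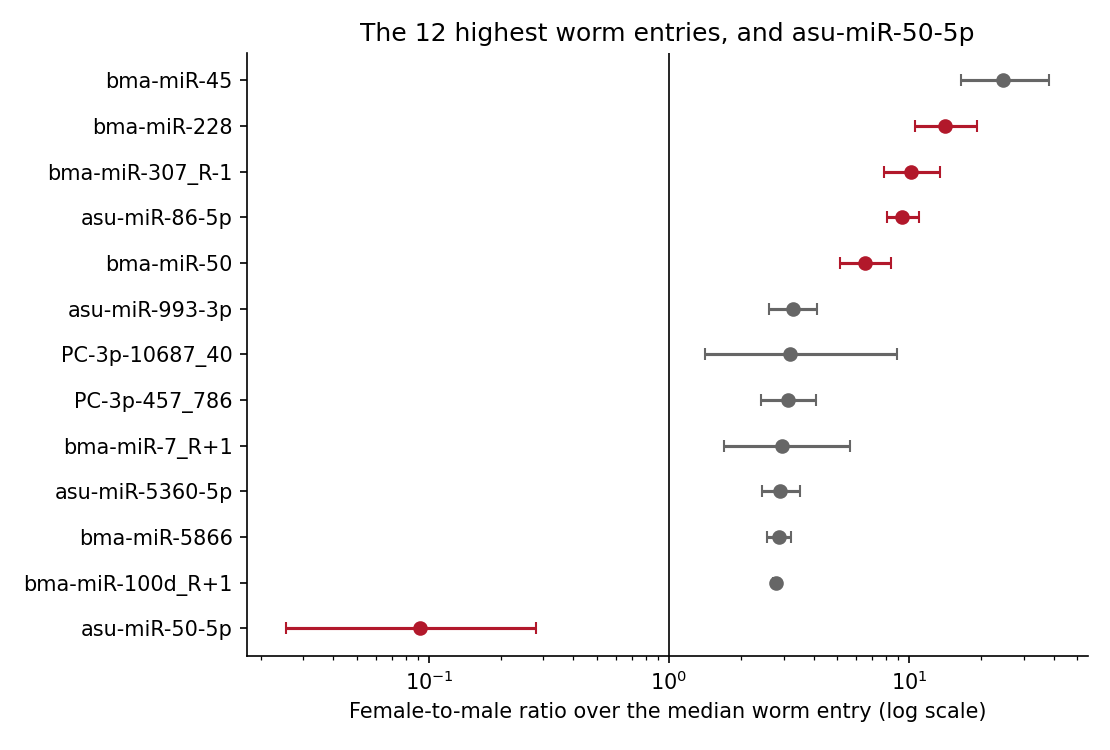
Female-to-male ratio divided by the median ratio of the worm entries (log axis, 95% counting intervals) for the 12 highest worm entries read in both libraries and for asu-miR-50-5p, with members in red. The highest is bma-miR-45, which is not a member, at 24.5. The 4 main entries lie between 6.53 and 14.1, the next entry, asu-miR-993-3p, lies at 3.27, and asu-miR-50-5p lies at 0.0917.

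The worm entries nearest in female reads are given for their male reads, as a description, since the members were chosen for few male reads against many female ones. The next worm entries above and below each of the 4 in female reads were 8 in all. One of them, bma-miR-45, had a higher ratio than any of the 4, and the other 7 had 276 to 1252 male reads and ratios from 0.483 to 2.64 over all reads. For bma-miR-228 they were bma-miR-5843_1ss11TC (3566 female and 345 male reads) and PC-3p-117_2488 (2868 and 456). For asu-miR-86-5p they were bma-miR-100b_R+1 (10611 and 1183) and bma-miR-100c_R+2_1ss12CT (7197 and 927). Among 18 worm entries with 2000 to 8000 female reads, the 4 main entries and bma-miR-45 were the ones with fewer than 276 male reads. Over 70 worm sequences with at least 10 reads in each library, which share both libraries, log2 ratios had a Spearman rho of 0.059 with GC content and 0.12 with length. With abundance, taken as the log2 of the summed shares, it was 0.36. That measure is built from the same shares as the ratio, and the 4 main entries are among the sequences, so the value is a description only.

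The entries of miR-50 lay on opposite sides by both share scales. While bma-miR-50 was higher in the female library, asu-miR-50-5p had 5 female and 12 male reads, 0.00183% (0.000594 to 0.00427) and 0.0330% (0.0170 to 0.0576) of worm reads. Its male share exceeded the female by 9.38-fold of all reads (3.08 to 34.0) and by 18.02-fold of worm reads (5.91 to 65.3). Relative to the median worm entry it was 10.9-fold lower in the female library (3.58 to 39.5). Of the worm entries, 18.8% by all reads and 34.8% by worm reads exceeded 2-fold toward the male. In the authors' normalized values it stood at 5.46 in females and 11.0 in males, 2.01-fold, and the interval of that female-to-male ratio, 0.137 to 1.52, holds 1. With median-of-ratios scaling and TMM, 2 other ways to scale the libraries, the male excess was 1.41-fold and 1.74-fold, below the 2-fold rule, and both intervals hold 1. Its side is therefore clear by share and not on these 3 scales.

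The split between the entries of miR-50 does not depend on the scale, and it differed between the libraries. The A12G form made up 0.244% of the 2052 female miR-50 reads (0.0792 to 0.568) and 14.8% of the 81 male ones (7.90 to 24.4). Per 1000 reads of bma-miR-50 there were 2.44 reads of asu-miR-50-5p in the female library and 174 in the male, a ratio of 71.2 (22.4 to 262.8). At the female split the male library would have held 0.197 reads of it. This value rests on 12 male and 5 female reads of the minor form. It also contains the female-high ratio of bma-miR-50, for which that entry was chosen, so its size is a description only. Relative to the median worm entry, bma-miR-50 lay 6.53 times above and asu-miR-50-5p 10.9-fold below. The 5 female reads equal the smallest count above 0 of any worm entry in that library. Both forms were counted here as miR-50, and their sum had a ratio of 6.48 (5.19 to 8.19) over all reads.

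The mammalian relative cfa-miR-190a_R+1 was the only other entry in the table with the miR-50 seed and is shown for comparison.
cfa-miR-190a_R+1: tGATATGTttgatatattaggtt
It had 7 male and 0 female reads. Its bases were identical to those of bma-miR-50 at 18 of 23 positions and to those of asu-miR-50-5p at 17 of 23. No other entry shared a seed with miR-228, miR-307 or miR-86, and no entry carried a family name miR-263, miR-183, miR-96, miR-182, miR-67, miR-785, miR-62 or miR-90.

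The remaining minor entries were read in the female library alone, at levels too low for the male depth to show. The seed-shifted cel-miR-86-5p_L+1R+1 had 21 female and 0 male reads, 0.285% of the female miR-86 reads (0.177 to 0.435). At that split, the 172 male miR-86 reads would have held 0.490 reads of it. The floor of 3 reads for a count of 0 equals 1.74% of them (exact upper limit 2.12%, if the 0 is exact). The opposite arm asu-miR-86-3p_R+1_2ss8GA20CG had 7 and 0 reads, 0.954 per 1000 reads of asu-miR-86-5p in the female library (0.383 to 1.97). For bma-mir-307-p5_1ss10AG, with 13 and 0 reads, the rate was 4.86 per 1000 reads of bma-miR-307_R-1 (2.58 to 8.32). For bma-mir-228-p3_1ss4TC, with 5 and 0 reads, it was 1.66 per 1000 reads of bma-miR-228 (0.540 to 3.89).

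These rates would give 0.164, 0.282 and 0.0782 reads in the male library, so at this depth the zeros there say nothing on the use of arms. Of 47 worm entries with 1 to 29 female reads, 66% were at 0 in the male library. In no case is a fold given, since against a floor of 3 male reads the side of the bound depends on the scale.

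**Figure D4:**
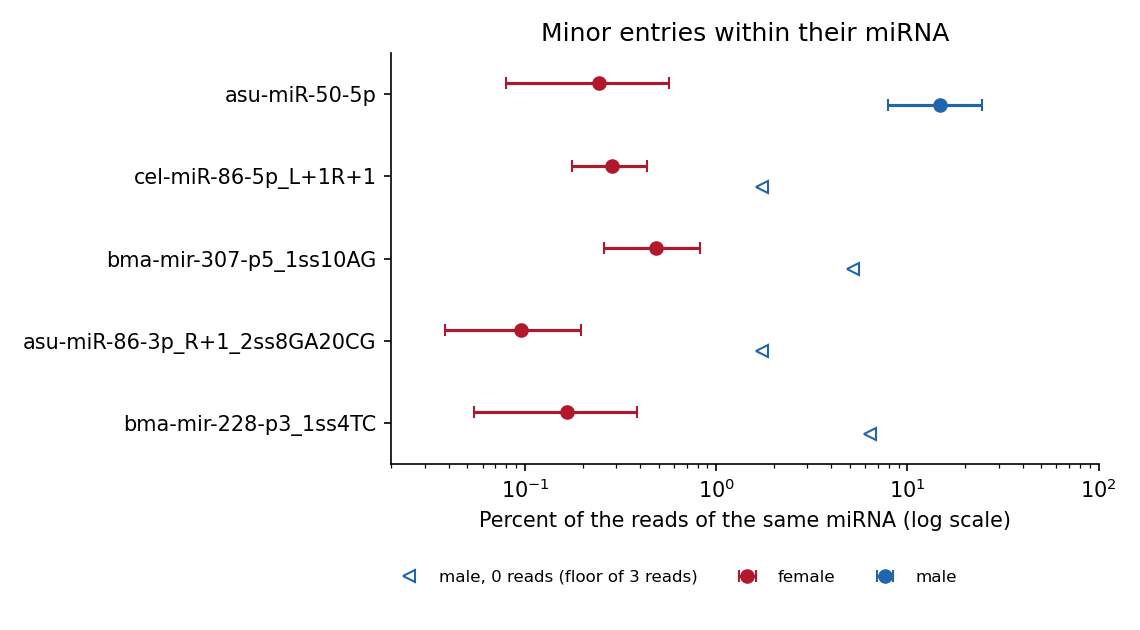
Percent of the reads of the same miRNA (log axis) that each of the 5 minor entries held in the female (red) and male (blue) library, with exact binomial 95% intervals, and open arrows at the floor of 3 reads where the male library had 0. The entry asu-miR-50-5p held 0.244% of the female and 14.8% of the male miR-50 reads, whereas the other 4 lie under 0.5% in the female library, below the male floors.

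Both arms were listed by name for 3 of the miRNAs. In a predicted duplex, bma-miR-307_R-1 formed 16 base pairs with bma-mir-307-p5_1ss10AG at -22.1 kcal/mol, and asu-miR-86-5p formed 18 with asu-miR-86-3p_R+1_2ss8GA20CG at -20.0 kcal/mol. Each was the most stable pairing of that entry among the 302 other sequences of the table. The pair of bma-miR-228 and bma-mir-228-p3_1ss4TC, with 16 base pairs at -14.1 kcal/mol, came 3rd. The match of these arms therefore rests on their names. The seed-shifted form of miR-86 gained 1 pair with the opposite arm, 19 in all at -23.1 kcal/mol.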

How the data were processed

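Small RNA libraries were made with the Illumina TruSeq chemistry from culture medium pellets, per the labels' protocols; the aligner, database release and genome were not given in the sources used here. For each library the authors deposited a raw column, read as estimated counts because 126 of 384 entries hold parts of reads, and a normalized column, treated as a signal, which equals the raw column times 1.09 (female) or 0.915 (male). Per-sample columns left unused numbered 0.

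Shares were taken over all reads and over worm reads. Ratios of shares carry exact conditional binomial (Clopper-Pearson) 95% intervals on counts rounded to whole reads (scipy 1.17.1), which cover counting error only, since reads carry no molecular identifiers. The floor is 3 reads, 0.00110% of the female and 0.00825% of the male worm reads. It lies below the smallest worm count above 0, which was 5 in each library. Entries with at least 10 reads in a library were called at 2-fold. The interval method was tested on simulated data. Alternative scales were edgeR 4.0.16 TMM, median-of-ratios, the deposited normalized values and totals without the top entry. Duplexes were predicted with RNAduplex of ViennaRNA 2.7.2 on single sequences.

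All members are named, with entries sharing a seed or family number, the 5 nearest in log2 ratio, neighbours in female reads, and entries of higher ratio. Members and lists were chosen with earlier results of these data known; the duplexes, the opposite-arm rates, the band of 2000 to 8000 female reads and the case-insensitive name match were added after the values were seen.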

Additional observations from a re-analysis of the deposited data

How the results depend on the processing

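The scale set the size of the ratios and not the side of the 4 main entries. The summed ratio, 10.8 over all reads, became 5.62 over worm reads, 12.7 without the most abundant entry of each library, 50.4 on the deposited normalized values, 58.3 with edgeR TMM and 72.0 with median-of-ratios scaling. It stayed within its interval when identical sequences were merged, when asu-miR-86-5p was left out (10.7) and, an alternative chosen after seeing the data, when names with lower-case mir were dropped (10.8). The count of 4 members with a ratio of 2 or more was 4 under every other read minimum, the merged sequences, worm reads and intervals wholly above 2, 5 without the top entries and 6 on the other 3 scales, where entries at 0 in the male library passed against the floor. The female-to-male ratio of asu-miR-50-5p ran from 0.0555 (worm reads) to 0.710 (median-of-ratios, interval 0.196 to 2.17). With TMM it was 0.575 (0.159 to 1.75), so under both it no longer met the 2-fold rule toward the male. All 4 main entries stayed at least 2-fold above the median worm entry with other definitions of that median, from 12.4 to 16.7 times for bma-miR-228 and from 5.77 to 7.75 times for bma-miR-50. No paired analysis was possible because each sex had 1 library. Depth limits the minor entries most, since the male library held 358 reads of all members. The smallest worm count above 0 was 5 in each library, so fewer than 5 reads may stand as 0. Values drawn from a 0 at the floor of 3 reads are uncertain to that extent.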

Other observations

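Some opposite arms of other worm miRNAs, chosen after their values were seen, could be compared where their main strand was deeper in the male library. The arm entry bma-mir-71-p3 had 40 female and 0 male reads, 8.01 per 1000 reads of bma-miR-71_R+4 in the female library (5.72 to 10.9), which would give 10.3 reads in the male. The smallest male worm count above 0 was 5, so the 0 may hide fewer reads than that. The arm entry bma-mir-279-p5 had 66 and 11 reads, 11.7 per 1000 reads of bma-miR-279_R+1 in the female library (9.02 to 14.9) and 4.40 in the male (2.19 to 7.89). The arms bma-mir-100a-p3 and bma-mir-100d-p3_1ss19AG had lower female rates, 0.0989 and 0.231 per 1000 reads of their main strands, with 0 male reads where 0.492 and 1.02 would follow from those rates. The female rates of the arms of miR-86, miR-228 and miR-307 lay between these and those of miR-71 and miR-279. Some other arms had more reads per main-strand read in the male library, but on few arm reads, and no interval was computed for them. The entry bma-mir-34-p3_1ss9AG had 12 female and 8 male reads against 977 and 260 of bma-miR-34. For bma-mir-87a-p5 there were 10 and 8 against 1467 and 236 of bma-miR-87a_R+1. The arms followed above are thus no guide to the direction over all arms. Of 16 nematode-named entries listed as a p5 or p3 arm, 10 were at 0 in the male library and 1 in the female.

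Entries that differ from another worm entry of equal length by 1 base were few, 5 pairs including that of miR-50. The 3 pairs among the candidates PC-3p-281_1188, PC-3p-1225_324 and PC-3p-2176_195 differ in their last base and split alike in the libraries. Per 1000 reads of PC-3p-281_1188 there were 140 female and 176 male reads of PC-3p-1225_324, and 39.3 and 43.5 of PC-3p-2176_195. The entry PC-3p-32064_10, 1 base from asu-miR-81b-3p_1ss18TC, had 18 female and 0 male reads against 1861 and 405. The split of miR-50 was the one with a higher rate in the male library by over 10-fold. Its major form, bma-miR-50, was chosen for a high female-to-male ratio, which raises that rate. Nothing is therefore read from the contrast with the other pairs.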
